A study of Mus musculus with 2 samples.

Results

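The calcium handling genes of cardiomyocytes described here are Ryr2, Atp2a2, Pln, Slc8a1, Cacna1c, Casq2, Trdn, Jph2, Camk2d and Asph. They were chosen by name for their part in excitation-contraction coupling, and all 10 were among the 21471 genes with reads in both hearts. The snRNA-seq experiment comprised the heart of 1 adult female (9 weeks) and of 1 aged female (78 weeks), both F1 hybrids of a C57BL/6J (BL6) mother and a CAST/EiJ (CAST) father. The title field marks both as carrying intact Xist, although another field gives the cross with the Xist-mutant mothers. The paper describes the females of its snRNA-seq experiment as wild type, as the title field does. The age of 78 weeks is that of the labels, whereas the name under which the aged values were deposited carries a different week number. Organs were frozen, and nuclei were sorted by a DNA dye before droplet sequencing of their 3' ends. In the values analysed here, all nuclei with an active BL6 X chromosome were pooled over cell types, and reads that cover a position differing between the strains (SNP) were counted per gene and allele. Neither age has a replicate heart, so every interval below is a 95% interval for counting error only and no test between the ages was made.

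In each heartbeat, calcium enters a cardiomyocyte through L-type channels in the T-tubule membrane. This calcium opens ryanodine receptors in the facing sarcoplasmic reticulum, whose store then empties into the cytosol and activates the sarcomere. Relaxation follows when the calcium pump of the reticulum takes calcium back up, under the brake of phospholamban, and when the sodium-calcium exchanger carries it out of the cell. In heart failure and in the ageing heart, this cycle is known to slow, and several of its proteins carry mutations that cause arrhythmia or cardiomyopathy.

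Counts of reads over SNPs, summed over all genes, were 9747535 for the adult and 5805807 for the aged heart. A read in nested loci entered these sums once for each locus. Reads were scaled to these totals (RPM, per 1000000 reads over SNPs). On this scale the median gene had an aged to adult ratio of 1.17 over the 12736 genes with at least 20 reads in both libraries, a shift of 0.22 in log2. Cell type markers moved with age as well. Summed RPM of 10 fibroblast markers went from 1440 to 2023, of 10 endothelial markers from 1044 to 1537, of 8 pericyte and smooth muscle markers from 186 to 480 (Kcnj8 was not listed in either library) and of 8 macrophage and leukocyte markers from 334 to 541. With at least 20 reads in both libraries, 7 of 9 fibroblast and 8 of 10 endothelial markers had a ratio above 1. Below 1 were the fibroblast genes Col3a1 (0.654) and Col1a2 (0.888) and the endothelial genes Vwf (0.953) and Emcn (0.970). The other 2 lists, with 6 and 7 such markers, had none below 1. Of 16 sarcomere genes, which mark cardiomyocytes, all were detected, with a summed 20751 RPM at 9 weeks and 16895 RPM at 78 weeks and a median ratio of 1.19. Ttn alone made up 11849 and 6872 RPM, and the sum without it had a ratio of 1.13. The 16 genes did not move alike. Their ratios ranged from 0.0893 for Myom2 (935 and 83.5 RPM) to 4.11 for Actc1 (337 and 1385 RPM). Of 6 atrial markers, the sum was 3446 and 613 RPM, led by Kcnj3 with 3247 and 451 RPM, and Bmp10 had 29 adult reads and 1 aged read. The paper reports a smaller share of cardiomyocytes and a larger share of fibroblasts in the aged heart, over all nuclei and not only those with an active BL6 X chromosome. In the pooled reads used here, a change in the number of cardiomyocytes and a change in RNA per cardiomyocyte cannot be told apart. The part of these marker changes in the results below was not tested.

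Together the 10 genes made up 3.42% of the summed counts of the adult heart and 3.28% of those of the aged heart. Their summed reads were 34228 and 32809 RPM, a ratio of 0.959 (0.953 to 0.964). Leaving out Ryr2 gave 0.855, and leaving out Trdn or Cacna1c gave 1.00, so the sum depended on single members. The median of the 10 ratios was 1.01, against 1.17 for all genes. With a ratio of 0.8 or below, or of its reciprocal or above, taken as the limit, Jph2 alone was higher in the aged heart and Trdn, Asph and Cacna1c were lower. The share of all tested genes beyond this limit was 43.7% in the higher and 20% in the lower direction. Relative to this median over genes with at least 20 reads, 9 of the 10 members were lower and 1 was higher. Most members have many more reads than that. Among genes with 1000 or more reads per library the median ratio was 1.105, and Ryr2 (1.148) and Atp2a2 (1.109) lay just above it.

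**Figure D1:**
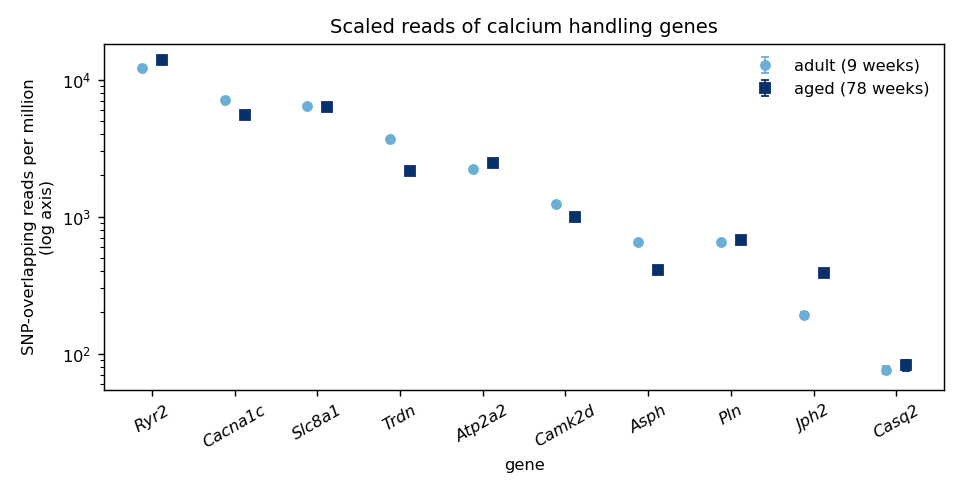
RPM of each gene (log axis) in the adult (circles) and aged (squares) library, ordered by the adult value, with bars for the 95% Poisson interval. Trdn dropped from 3689 to 2132 RPM and Jph2 went from 192 to 387 RPM, whereas the points of Slc8a1, Pln and Casq2 lie close together.

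Calcium entry was represented by Cacna1c, which encodes the pore of the cardiac L-type channel. The gene lies on the minus strand of chromosome 6 of GRCm38, from 118587240 to 119197496, and is the longest of the 10 loci at 610 kb, of which 3.48% is exon in GENCODE. The adult heart gave 40887 reads from BL6 and 27640 from CAST, and the aged heart 20036 and 12181. This corresponded to 7030 RPM (6978 to 7083) and 5549 RPM (5489 to 5610), a ratio of 0.789 (0.779 to 0.7999). Both alleles were lower in the aged heart, with a ratio of 0.823 for BL6 and 0.740 for CAST, and neither interval reached 1. The ratio to the reads of Cacnb2, the auxiliary beta subunit that brings the pore to the membrane, went from 3.78 to 2.87. Against Ryr2, the release channel that it opens, it went from 0.583 to 0.401. These ratios within a library do not depend on the scaling.

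Calcium release was represented by Ryr2, the cardiac ryanodine receptor, and by 3 of its partners in the junctional reticulum. Ryr2 spans 554 kb of the minus strand of chromosome 13 (11553099 to 12106945) and overlaps no other listed locus. It alone took 1.21% of the adult and 1.39% of the aged summed counts. Its adult reads, 61444 from BL6 and 56188 from CAST, corresponded to 12068 RPM, and its aged reads, 40203 and 40236, to 13855 RPM. The ratio of 1.15 (1.14 to 1.16) was close to the all-gene median of 1.17. Casq2 encodes calsequestrin, the protein that buffers calcium inside the store, and lies on chromosome 3 (102086420 to 102146514). It had the fewest reads of the 10 genes, 738 adult and 475 aged reads, that is 75.7 RPM (70.3 to 81.4) and 81.8 RPM (74.6 to 89.5), so that a difference was not detectable at this depth.

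Trdn and Asph differed from Ryr2. Trdn encodes triadin, which ties calsequestrin to the ryanodine receptor, and spans 393 kb of chromosome 10 (33083483 to 33476709). Its reads went from 35959 to 12377, or from 3689 RPM (3651 to 3727) to 2132 RPM (2094 to 2170). The ratio of 0.578 (0.566 to 0.590) was the lowest of the 10, and a ratio as low was found for 7.33% of all genes with 1000 or more reads per library. The locus also holds D830005E20Rik, which lies inside Trdn over 34.0 kb and had 14496 adult and 4390 aged reads. In all 3104 pairs of nested loci of the adult library, the inner locus had no more reads than the outer one in either allele, as when reads are counted for both. With the reads of D830005E20Rik subtracted, Trdn kept 21463 and 7987 reads and a ratio of 0.625 (0.609 to 0.641).

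Asph encodes aspartate beta-hydroxylase and, from the same locus, the shorter junctin, which resembles triadin and binds the same receptor. The locus lies on the minus strand of chromosome 4 (9449085 to 9669344). With 3112 reads from BL6 and 3292 from CAST, the adult heart had 657 RPM, and with 1281 and 1098 reads the aged heart had 410 RPM. The ratio was 0.624 (0.595 to 0.654), and 0.611 when the reads of Clvs1, which overlaps its end by 2.61 kb, were subtracted. The reads of one locus do not separate the hydroxylase from junctin. The ratio of Trdn to Asph reads went from 5.62 to 5.20, a change of 0.927 (0.880 to 0.975). Relative to Ryr2, the aged value was 0.503 (0.492 to 0.515) of the adult value for Trdn, 0.543 (0.518 to 0.570) for Asph and 0.941 (0.838 to 1.06) for Casq2.

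Jph2 encodes junctophilin 2, which holds the T-tubule and the reticulum together in the dyad. It lies on the minus strand of chromosome 2 (163336242 to 163398049). The adult heart gave 1869 reads and the aged heart, with fewer reads over all genes, 2245, or 192 RPM (183 to 201) and 387 RPM (371 to 403). The ratio was 2.02 (1.90 to 2.15), and it was 1.94 without the reads of Gm35750, a locus inside Jph2 with 413 adult and 566 aged reads. A ratio no higher than that of Jph2 was found for 96.3% of all genes with 1000 or more reads per library. The paralog Jph1, which serves the same role mainly in skeletal muscle, went the other way, with 158 and 106 RPM. The ratio of Jph2 to Jph1 reads was therefore 1.21 in the adult and 3.66 in the aged heart.

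Calcium removal was represented by the pump Atp2a2, its inhibitor Pln and the exchanger Slc8a1. Atp2a2, also known as SERCA2, lies on chromosome 5 (122453513 to 122502225) and overlaps no other listed locus. It had 21499 and 14200 reads, or 2206 RPM (2176 to 2235) and 2446 RPM (2406 to 2486), a ratio of 1.11 (1.09 to 1.13). Pln, phospholamban, had 6307 and 3917 reads, or 647 and 675 RPM, a ratio of 1.04 (1.00 to 1.09). The reads of Pln per read of Atp2a2 went from 0.293 to 0.276, and the aged value was 0.940 (0.899 to 0.984) of the adult one. Slc8a1, also known as NCX1, lies on chromosome 17 (81373105 to 81738387) and had 62677 and 36425 reads, or 6430 and 6274 RPM, a ratio of 0.976 (0.963 to 0.988). The 3 removal genes thus lay within the limit in both directions and below the all-gene median of 1.17. Against the median of 1.105 of genes with 1000 or more reads per library, Atp2a2 (1.109) was about equal and the other removal genes were lower.

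Camk2d encodes the main cardiac form of the calcium and calmodulin dependent kinase, which phosphorylates the ryanodine receptor, phospholamban and the L-type channel. It lies on chromosome 3 (126596354 to 126846326). It had 12027 adult and 5808 aged reads, or 1234 RPM (1212 to 1256) and 1000.4 RPM (975 to 1026), and the ratio of 0.811 (0.786 to 0.837) fell just short of the limit of 0.8 that Cacna1c passed. Its alleles moved alike, with a ratio of 0.811 for BL6 and 0.810 for CAST.

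Another scale multiplies all 10 ratios by the same factor, so that it leaves their order as it is and moves their position relative to 1 and to the limit. Trdn and Asph were past the lower limit and Jph2 past the higher limit under the total, the median gene, the autosomal reads without the 20 most abundant genes, the sarcomere reads and the sarcomere reads without Ttn. Relative to the sarcomere reads, however, Ryr2 was at 1.41, Atp2a2 at 1.36, Casq2 at 1.33, Pln at 1.28 and Slc8a1 at 1.20, whereas Cacna1c and Camk2d were at 0.969 and 0.996. Without Ttn in that list, but with Actc1 and Myom2 kept, these 7 values became 1.02, 0.985, 0.960, 0.926, 0.867, 0.701 and 0.720. The direction of Slc8a1, Pln, Casq2, Atp2a2 and Ryr2 is therefore not given by these data.

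Reads per length of locus are given next as a description and not as a ranking of expression. With sequencing of 3' ends, reads need not grow with the length of a locus. The SNP density of the loci, which also sets the number of informative reads, was not used. In RPM per kilobase of locus, the adult heart had 77.8 for Pln, 45.3 for Atp2a2, 21.8 for Ryr2, 17.6 for Slc8a1, 11.5 for Cacna1c, 9.38 for Trdn, 4.94 for Camk2d, 3.10 for Jph2, 2.98 for Asph and 1.26 for Casq2. Of these neighbours, only Jph2 and Asph had overlapping counting intervals. In the aged heart the first 5 places were unchanged, but Jph2 (6.26) stood above Trdn (5.42) and Camk2d (4.002), and Asph (1.86) was second to last before Casq2 (1.36). The high value of the short gene Pln goes with an exon share of 33.2% of its locus, against 2.36% to 12.5% in the other 9.

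Next, the alleles were compared. The allelic ratio is the BL6 share of the reads of a gene, and all autosomal reads together gave 53.4% BL6 in the adult and 53.8% in the aged heart. BL6 was the maternal strain in both hearts and is also the strain of the reference genome. Strain, parent of origin and alignment to the reference therefore cannot be told apart in these ratios. As both alleles of a gene sit in the same nuclei, the allelic ratio does not depend on how many cardiomyocytes were sampled, unless cell types differ in their allelic balance. Most members were near balance, with a median allelic ratio of 0.531 at 9 weeks and 0.538 at 78 weeks. An allelic ratio of 0.4 or lower or of 0.6 or higher was found for 1 member in each heart, Pln in the adult and Cacna1c in the aged. Of the 12390 autosomal genes with at least 20 reads in both libraries, these were 32.7% in the adult and 39.5% in the aged heart. Only 1175 autosomal genes had at least 1000 reads in both libraries, as 9 members did, and counting error moves genes with few reads away from 0.5. The share at like depth was not computed, so the members cannot be called more balanced than other genes. The allelic ratio of Cacna1c was 0.597 (0.593 to 0.600) at 9 weeks and 0.622 (0.617 to 0.627) at 78 weeks, so that its excess of BL6 reads was present at both ages.

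Pln showed the largest allelic change. It lies on the plus strand of chromosome 10, from 53337686 to 53345999, inside the longer gene Cep85l. Of the adult reads 4262 came from BL6 and 2045 from CAST, and of the aged reads 2303 and 1614. The allelic ratio was 0.676 (0.664 to 0.687) and 0.588 (0.572 to 0.603), a change of 0.0878 (0.0686 to 0.107) for adult minus aged. An absolute change of this size or more was found for 4.60% of the 1175 autosomal genes with at least 1000 reads in both libraries. BL6 reads went from 437 to 397 RPM and CAST reads from 210 to 278 RPM, a ratio of 0.907 (0.862 to 0.955) and 1.33 (1.24 to 1.42). The nearly equal totals thus covered alleles on opposite sides of 1. The reads of Cep85l that remained after those of Pln were subtracted, 1815 adult and 1104 aged reads, were from BL6 at a share of 0.553 (0.529 to 0.576) and 0.578 (0.548 to 0.607), which did not show this change.

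In Casq2 and Jph2, too, the BL6 share was lower at 78 weeks. Casq2 went from 375 BL6 and 363 CAST reads to 203 BL6 and 272 CAST reads, an allelic ratio of 0.508 (0.471 to 0.545) and 0.427 (0.382 to 0.473). Its change of 0.0808 (0.0232 to 0.137) had an interval above 0, although the intervals of the single ages overlapped at their ends. Jph2 went from 1027 BL6 and 842 CAST reads to 1099 BL6 and 1146 CAST reads, an allelic ratio of 0.549 (0.527 to 0.572) and 0.490 (0.469 to 0.510). Both alleles of Jph2 were higher in the aged heart, BL6 by a ratio of 1.80 and CAST by 2.29.

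**Figure D2:**
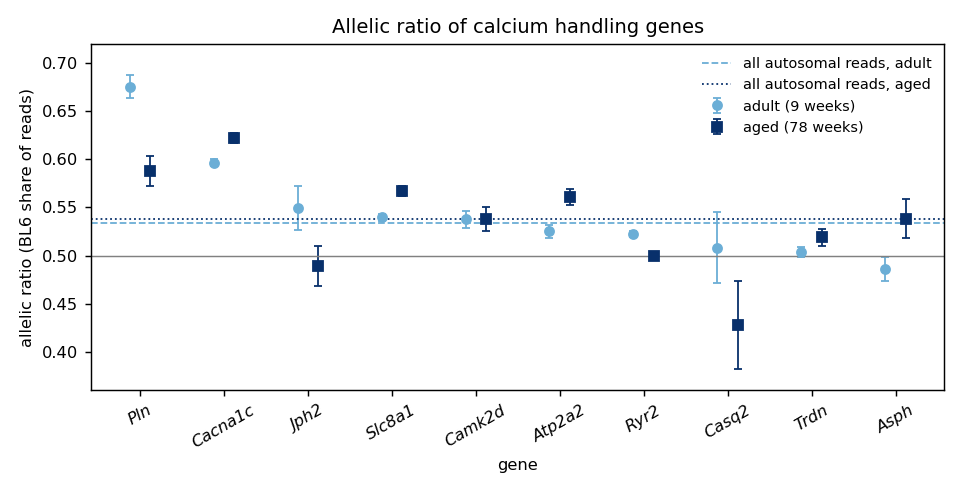
Allelic ratio (BL6 share of the reads) of each gene in the adult (circles) and aged (squares) library with exact 95% binomial intervals, ordered by the adult value, and lines at 0.5 and at the share of all autosomal reads. Pln moved from 0.676 to 0.588, Cacna1c stayed near 0.6 and Camk2d had 0.538 at both ages.

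The other members moved by less or the other way. The allelic ratio of Asph went from 0.486 (0.474 to 0.498) to 0.538 (0.518 to 0.559) and that of Atp2a2 from 0.525 (0.518 to 0.532) to 0.561 (0.553 to 0.569). Slc8a1 went from 0.540 to 0.567, Trdn from 0.504 to 0.519 and Ryr2 from 0.522 to 0.4998, whereas Camk2d was at 0.538 in both. The balanced allelic ratio of Trdn was a mean of unequal stretches: D830005E20Rik inside it had 0.429 and 0.430, and the remaining reads of Trdn 0.554 (0.548 to 0.561) and 0.568 (0.557 to 0.579). Adult and aged intervals were separate for 8 of the 10 members, with a higher allelic ratio in the aged heart for 5 and a lower one for 3. This was the case for 11.8% of all autosomal genes with at least 20 reads and for 31.7% of those with at least 1000 reads in both libraries, to which 9 members including these 8 belong. The many reads of the members make their intervals narrow, and the median absolute change was 0.0316 for the members and 0.0266 for these 1175 genes.

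**Figure D3:**
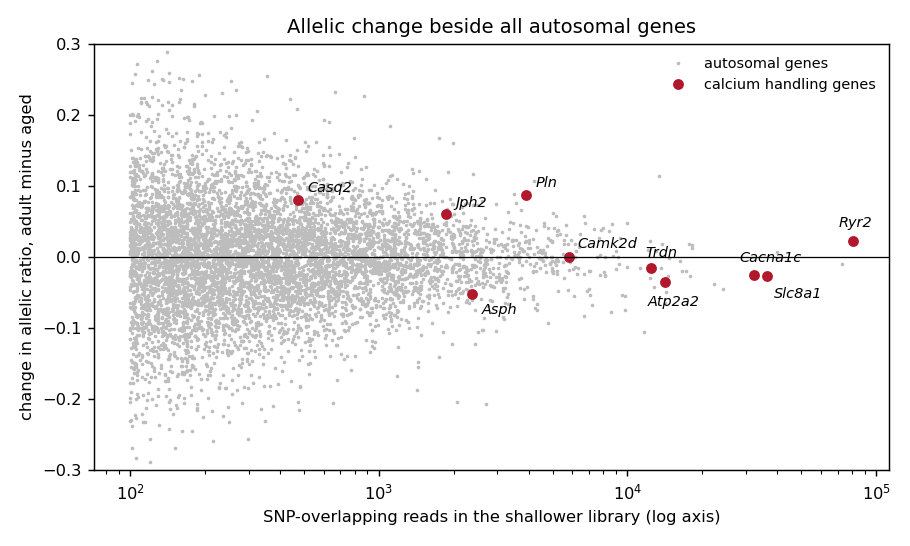
Change in allelic ratio, adult minus aged, of autosomal genes with at least 100 reads in both libraries (grey) and of the 10 calcium handling genes (red) against the reads of the shallower library (log axis). Of 7068 genes, 6 lie outside the plotted range of 0.3 in either direction. Pln lies near the upper edge of the genes of its depth at 0.0878, and Camk2d lies at the zero line.

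With the alleles taken apart, the largest changes in reads were present in both. BL6 and CAST reads of Trdn had a ratio of 0.595 and 0.560, those of Asph of 0.691 and 0.560, and those of Jph2 of 1.80 and 2.29. The alleles come from the same nuclei and are no replicates of each other. On opposite sides of the all-gene median of 1.17 were the alleles of Ryr2 (1.10 and 1.20), Atp2a2 (1.18 and 1.03), Pln (0.907 and 1.33) and Casq2 (0.909 and 1.26). Of the 9 members with at least 1000 reads, these were 3, and of all such autosomal genes 15.1%.

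**Figure D4:**
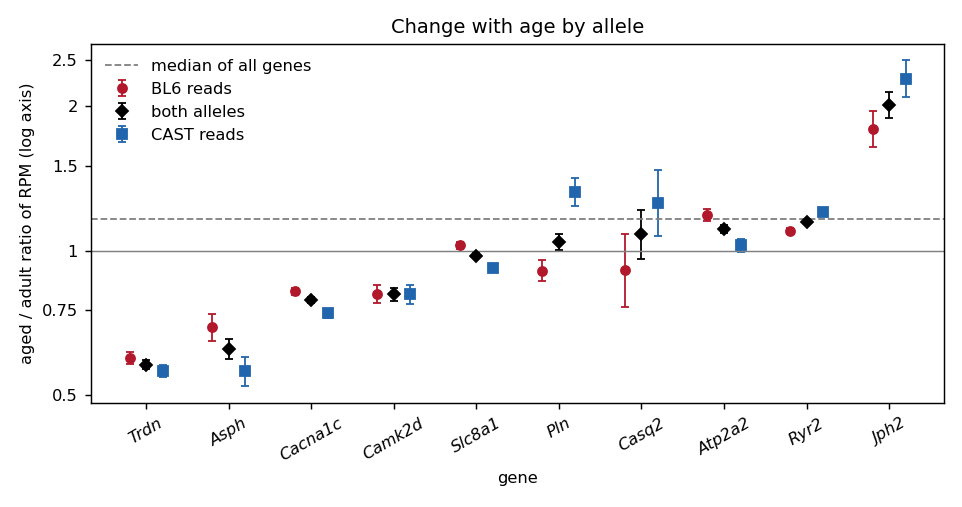
Aged to adult ratio of RPM (log axis) of each gene for BL6 reads (circles), both alleles (diamonds) and CAST reads (squares) with 95% intervals, ordered by the ratio of both alleles, with lines at 1 and at the all-gene median of 1.17. The alleles of Trdn and Asph lie between 0.560 and 0.691 and those of Jph2 at 1.80 and 2.29, and the alleles of Pln lie on either side of 1.

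For the 3 genes with the largest lowering of the allelic ratio, the sequence from 250 bases before to 50 bases after the start site is shown from RefSeq (GRCm38.p6), that is, for the BL6 allele. The part of sequence in the allelic ratios or in their change was not tested. The CAST sequence was not used here. Promoter sequences were matched for 7 of the 10 members. Capitals mark matches on either strand to the TATA box (TATAAA), the MEF2 motif (CTANNNNTAG), a GATA motif (AGATAA), the M-CAT motif bound by TEAD factors (CATTCC) or a muscle E-box (CAGCTG), with no overlap among the matches. These are Pln on the plus strand at chr10:53337436-53337735, Jph2 on the minus strand at chr2:163397944-163398243, and Casq2 on the plus strand at chr3:102086165-102086464.
Pln: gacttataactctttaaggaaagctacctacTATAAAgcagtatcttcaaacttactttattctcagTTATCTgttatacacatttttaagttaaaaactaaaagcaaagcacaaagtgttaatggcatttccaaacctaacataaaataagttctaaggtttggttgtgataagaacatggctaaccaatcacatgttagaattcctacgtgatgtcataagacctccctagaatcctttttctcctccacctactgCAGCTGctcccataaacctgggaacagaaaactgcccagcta
Jph2: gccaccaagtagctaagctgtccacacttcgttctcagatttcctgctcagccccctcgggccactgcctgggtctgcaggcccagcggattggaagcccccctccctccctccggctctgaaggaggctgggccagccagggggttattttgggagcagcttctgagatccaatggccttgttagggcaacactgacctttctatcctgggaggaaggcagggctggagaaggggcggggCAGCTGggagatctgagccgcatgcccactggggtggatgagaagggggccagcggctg
Casq2: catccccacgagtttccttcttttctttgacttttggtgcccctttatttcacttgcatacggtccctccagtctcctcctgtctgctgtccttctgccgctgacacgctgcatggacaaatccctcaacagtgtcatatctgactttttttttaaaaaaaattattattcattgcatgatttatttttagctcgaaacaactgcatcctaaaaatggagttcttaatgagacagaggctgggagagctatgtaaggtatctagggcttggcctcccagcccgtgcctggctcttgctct

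The window of Pln held TATAAA with its first base at position -219 from the start site, the reverse complement of AGATAA at -183 and CAGCTG at 9. That of Jph2, the upstream one of a pair of listed start sites, held CAGCTG at -9. The window of Casq2 held none of the 5 motifs. Among 32851 windows of the same length, 13.6% held TATAAA, 11.2% AGATAA, 16.3% CAGCTG, 14.7% CATTCC and 3.69% the MEF2 motif. The G and C content was 36% for Pln, 63.0% for Jph2 and 44.7% for Casq2. A match is a description of the letters and says nothing about binding in these nuclei.

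The wider calcium pathway was then examined with a list of 52 further genes for channels, pumps, exchangers, release channels, scaffolds, sensors and mitochondrial transport. Of these, 42 had at least 20 reads in both libraries, and Strit1 and Mcub were not listed in either. Past the higher limit in the aged heart were 19, past the lower limit 9, and 14 lay between, against 43.7% and 20% of all genes in these directions. The median ratio was 1.10, below the all-gene median of 1.17 like that of the 10 members. By role, in groups chosen with values known, 3 of 3 genes of store-operated entry (Stim1, Stim2 and Orai1) and 4 of 5 tested pumps, exchangers and pump inhibitors were higher. Of these 4, Slc8a2 had only 23 adult and 42 aged reads. Slc8a3 had 22 and 20 reads, and its interval of 0.790 to 2.93 included 1. Of the 6 junction and T-tubule scaffold genes, 3 were higher and 3 lower. Of 8 sensors, kinases and phosphatases, 3 were higher and 2 lower, of 11 release channels and regulators 4 and 1, of 5 surface channels 1 and 1, and of 4 mitochondrial genes 1 and 1.

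**Figure D5:**
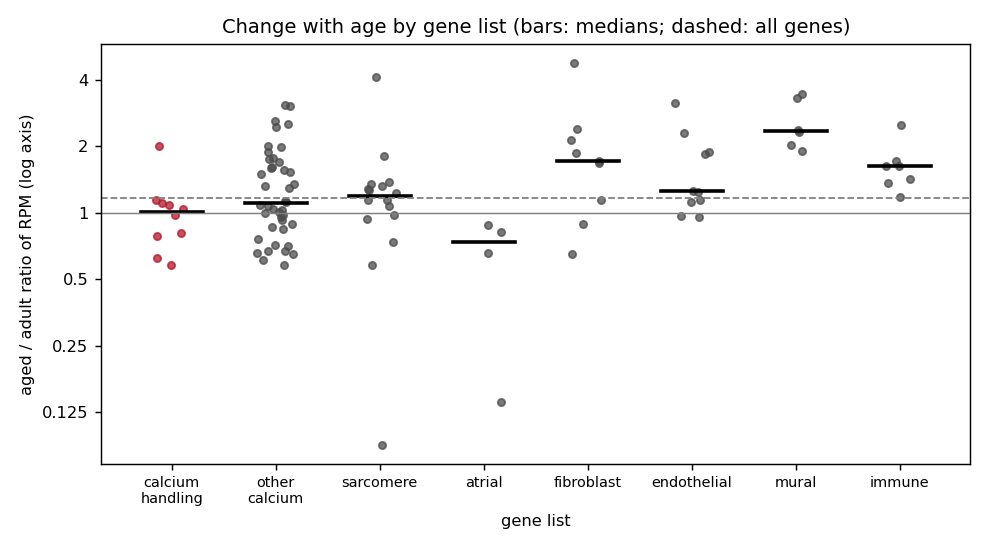
Aged to adult ratio of RPM (log axis) of every gene with at least 20 reads in both libraries, by gene list, with bars at the list medians, a solid line at 1 and a dashed line at the all-gene median of 1.17. The 10 calcium handling genes lie between 0.578 and 2.02 with a median of 1.01, the 42 other calcium genes have a median of 1.10, and the 6 tested mural genes all lie at 1.90 or above.

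Among the 32 pathway genes with at least 100 reads in both libraries, Calm2, 1 of 3 calmodulin genes, had the highest ratio, 2.61 (2.19 to 3.11) from 217 and 337 reads. It was followed by Orai1, the pore of store-operated entry, with 2.54 (2.02 to 3.19), Atp2b4, a calcium pump of the plasma membrane, with 2.001 (1.77 to 2.26), and Fkbp1a, which binds ryanodine receptors, with 1.88 (1.63 to 2.18). The lowest ratios were those of Camk2a, a kinase subunit best known from neurons, with 0.580 (0.473 to 0.707), Akap6, the nuclear envelope and dyad anchor of protein kinase A, with 0.613 (0.593 to 0.633), Ryr3 with 0.654 and Jph1 with 0.669. Akap6 was the most abundant of these 8, with 13561 and 4952 reads. The adult allelic ratios farthest from 0.5 in this list were those of Cacna2d1, Speg, Bin1 and Itpr2. Cacna2d1, the alpha2delta subunit of the L-type channel, went from an allelic ratio of 0.713 (0.705 to 0.722) to 0.737 (0.726 to 0.747), and Speg, a kinase of the dyad, from 0.710 to 0.734. Bin1, which shapes T-tubules, had 0.688 from 112 reads and 0.560 from 100 reads, and Itpr2, the inositol trisphosphate receptor of cardiomyocytes, 0.356 and 0.333 in favour of CAST. Itpr2 shares its locus with 3 others that together had 18.3% of its adult read number.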

How the data were processed

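Single nuclei of 1 adult and 1 aged heart were measured by snRNA-seq (10x Genomics 3' chemistry). The authors aligned reads to mm10 with Cell Ranger 7.1.0, split them by nucleus, pooled nuclei with an active BL6 X chromosome and counted alleles over RefSeq genes of GRCm38 with Allelome.PRO2. Per the file headers, the deposited values are unnormalized counts of BL6 and CAST reads over SNPs, and the allelic ratio as a fraction rounded to 2 decimals by the authors. A deposited allelic score was not used. The authors removed doublets from their expression matrices with DoubletFinder. Whether these pooled reads exclude those nuclei is not given in the sources used here, and no doublet call was made here. Reads are not known to be single molecules, strand is not stated to be used in counting, and a read in nested loci entered each of them.

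RPM (reads per 1000000 reads over SNPs), allelic ratio and ratios were computed in Python 3.11.15 with scipy 1.17.1 for genes with at least 20 reads per library. Intervals are exact Clopper-Pearson (allelic ratio), exact Poisson (RPM), conditional binomial (ratios), Newcombe (allelic ratio changes) and normal on the log scale (ratios of pairs). The Clopper-Pearson, conditional binomial and Newcombe intervals were run on simulated independent reads. Such reads follow the model of the intervals, so this checks the computation and not the spread of real reads or hearts. Starts count from 1. Strands and exons come from GENCODE M21. The members, lists and the 1.25-fold limit were chosen with earlier results of these data known. Pathway genes were named by rule, the 4 highest and 4 lowest ratios and the 4 adult allelic ratios farthest from 0.5 at 100 reads or more, and the pairs of genes and role groups were chosen with values known. Alternatives were other scales, single alleles, read minimums, folds and distances, thinning to the aged total (100 draws), deposited ratios and leaving out members. Subtraction of overlapping loci and a sarcomere list without Ttn were added after seeing the data.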

Additional observations from a re-analysis of the deposited data

How the results depend on the processing

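Without replicate hearts, only counting error is covered. No paired analysis was possible because each age has 1 library. The summed ratio of 0.959 became 0.831 when scaled to the median gene with at least 100 reads, 0.942 with the autosomal reads without the 20 genes with most reads, 1.18 with the sarcomere list and 0.851 with that list without Ttn. It ranged from 0.855 (without Ryr2) to 1.00 (without Trdn, and likewise without Cacna1c) when single members were left out. The median ratio of 1.01 became 0.875, 1.24 and 0.896 with the median gene, the sarcomere list and that list without Ttn, and 0.908 with BL6 reads alone. The number of members past the higher limit was 1, and became 5 with the sarcomere list and 3 with CAST reads alone. The number lower stayed between 2 and 4 under the alternatives run. The number with an allelic ratio at least 0.1 from 0.5 was 1 at each age. It became 2 in the adult and 5 in the aged heart at a distance of 0.05, 2 in the adult heart with the deposited ratios, where Cacna1c is rounded to 0.60, and 0 at both ages among the 3 members that overlap no other locus. The reads of Cep85l outside Pln had a change in allelic ratio of -0.0253 (-0.0621 to 0.0119), beside 0.0878 for Pln. They hold no reads of Pln and are a comparison with the surrounding gene, not a recomputation of Pln. Thinning of the adult reads kept the sum at 0.958. In all, 29 recomputations of summary values were classed as near the reported ones and 22 as moved, and for single genes 57 and 53. The margin differed between kinds of value, and the number of lower members counted as near at 2 and at 4. The Cep85l reads outside Pln, with a change of opposite sign, are in neither class. The RPM ratios of Ryr2, Atp2a2, Pln, Casq2 and Slc8a1, none of them past the limit as reported, lay on the other side of 1 under some of these settings, and the allelic change of Camk2d, reported as -0.000344, was 0.00340 relative to the autosomal BL6 share.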

Other observations

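Loci that lie in or across the calcium handling genes had values of their own. D830005E20Rik inside Trdn (chromosome 10, 33222345 to 33256357) had 1487 RPM in the adult and 756 RPM in the aged heart, a ratio of 0.508 (0.491 to 0.526), and it accounted for 40.3% and 35.5% of the read number of Trdn. LOC108169205 and 4931430N09Rik inside Cacna1c had a ratio of 0.605 (0.523 to 0.698) and 0.623 (0.520 to 0.743), lower than the 0.789 of Cacna1c. Gm35750 inside Jph2 had 42.4 and 97.5 RPM, a ratio of 2.30 (2.02 to 2.62). Gm34131, which overlaps the start of Slc8a1 over 34.3 kb, had 186 and 340 RPM, a ratio of 1.82 (1.71 to 1.94) beside 0.976 for Slc8a1, and its allelic ratio was 0.5003 and 0.605. Reads within the shared stretches cannot be divided between the loci.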
